A study of Mus musculus with 20 samples.

Results

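Potassium channel genes were described in the adult hippocampus of mice whose mothers breathed nano-sized particulate matter (nPM) or filtered air during pregnancy. They were chosen by name only: a gene was taken when the deposited gene table called it protein coding and its symbol began with Kcn followed by subfamily letters and a number. This gave 92 genes in 20 subfamilies of the 48709 genes counted. After the filter on low counts, 79 of the 92 were tested, among 19797 tested genes in all. The rule used names and no measured value, but it was set with earlier results of these data known.

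RNA was sequenced from the hippocampus of the right hemisphere of young adult C57BL/6 mice (C57BL/6J by the study's methods), with ribosomal RNA depleted beforehand. The 4 groups held 5 samples each: females and males whose dams had filtered air (control), and females and males whose dams had nPM. The exposed dams breathed, whole body, re-aerosolized nPM collected beside a Los Angeles freeway. Exposure took 5 h a day on 3 days a week from gestational day 2 until birth, at a target of 300 per m3 (in mg by the sample labels, in μg by the study's methods). Females were 17.71 to 18.29 weeks old and males 18.57 to 19.14 weeks old at collection, so sex and age cannot be told apart. The study's methods describe injections of EdU, a thymidine analog that marks dividing cells, for the male offspring, and also say that every animal was injected, so whether the females here received it is not clear. If they did not, EdU cannot be told apart from sex either. Each exposure came from 5 litters, and the litter of a sample was not given in the sources used here, so that samples may share a litter and p-values measure the spread between these samples.

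Potassium channels let potassium ions leave or enter a cell along their gradient and so set the resting potential, end action potentials and time repetitive firing. The voltage-gated families open on depolarization, the inward rectifiers (Kcnj) and the two-pore-domain leak channels (Kcnk) carry current near rest, and calcium- or sodium-activated channels (Kcnma, Kcnn, Kcnt) couple firing to ion entry. In the hippocampus, A-type channels in pyramidal cell dendrites damp back-propagating spikes, the M-current limits repetitive firing, and inward rectifiers of astrocytes clear potassium released by active neurons. Silent modifier subunits (Kcnf, Kcng, Kcns, Kcnv) form no channel alone and change the voltage-gated channels they join, and auxiliary subunits (Kcnab, Kcnip, Kcne) bind to pore-forming subunits.

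The libraries held 19092067 to 38663408 counted reads (median 29468930). All of the fixed markers of dentate granule cells (10 of 10), CA1 (8 of 8) and CA3 pyramidal cells (8 of 8) had counts. The summed level of 13 choroid plexus markers ranged from 44.4 to 8796 CPM (counts per 1e+06 counted reads) over the samples, and the library nPM females 1 also had a summed level of 12 striatal markers of 651.8 CPM, against 157 to 221 CPM in the others. The summed thalamus markers were highest in nPM males 1, at 456 CPM, and next in control females 3, at 446 CPM. The library nPM males 1 had the lowest value of its group for 31 of the 79 tested potassium channel genes, nPM females 1 also for 31 and control males 1 for 30, and control males 3 had the highest for 36. Squared differences between replicates of a group were 14.8 to 92.6 times what counting noise alone gives.

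Levels are compared between genes as RPKM, CPM per kilobase of gene, averaged over the 20 samples. Of the 92 genes, 29 had at least 10 RPKM, 35 had 1 to 10 RPKM and 28 had under 1 RPKM. The summed level of all 92 was 742.7 RPKM, of which the 10 most abundant genes made up 43.1%. Of all gene counts, they took 0.486% ± 0.021 in the control group and 0.464% ± 0.027 in the nPM group of females, and 0.432% ± 0.029 (control) and 0.448% ± 0.032 (nPM) in males (SD, n = 5). The range over samples was 0.407% to 0.510%.

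The gene with the highest level, in 20 of 20 samples, was not a pore but a helper. Kcnab2, the beta subunit that binds the cytoplasmic side of Kcna channels, had 61.6 ± 9.72 RPKM (SD, n = 20, range 45.1 to 87.5). Kcnd2, the A-type channel of pyramidal cell dendrites, followed at 39.4 ± 3.92 RPKM. Kcnj3, a G-protein-gated inward rectifier, had 37.8 ± 3.48 RPKM and Kcnk1, a leak channel, had 32.4 ± 4.88 RPKM. These first places held over most samples: Kcnd2 exceeded Kcnj3 in 16 of 20, Kcnj3 exceeded Kcnk1 in 17 and Kcnk1 exceeded Kcna1 in 15.

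Below them the order was loose. The axonal channel Kcna1 had 28.3 ± 3.37 RPKM and Kcnma1, the large-conductance calcium-activated channel, 27.6 ± 4.04 RPKM, and Kcna1 was the higher in 11 of 20 samples. Kcnip2, a calcium-binding partner of Kcnd channels, had 24.8 ± 4.75 RPKM and exceeded the axonal Kcna2, at 24.5 ± 3.39 RPKM, in 11 samples. The M-current subunit Kcnq3 had 20.5 ± 2.95 RPKM. Within this stretch, the neighbours Kcna1 and Kcnma1, and Kcnip2 and Kcna2, did not differ beyond their spread over samples.

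**Figure D1:**
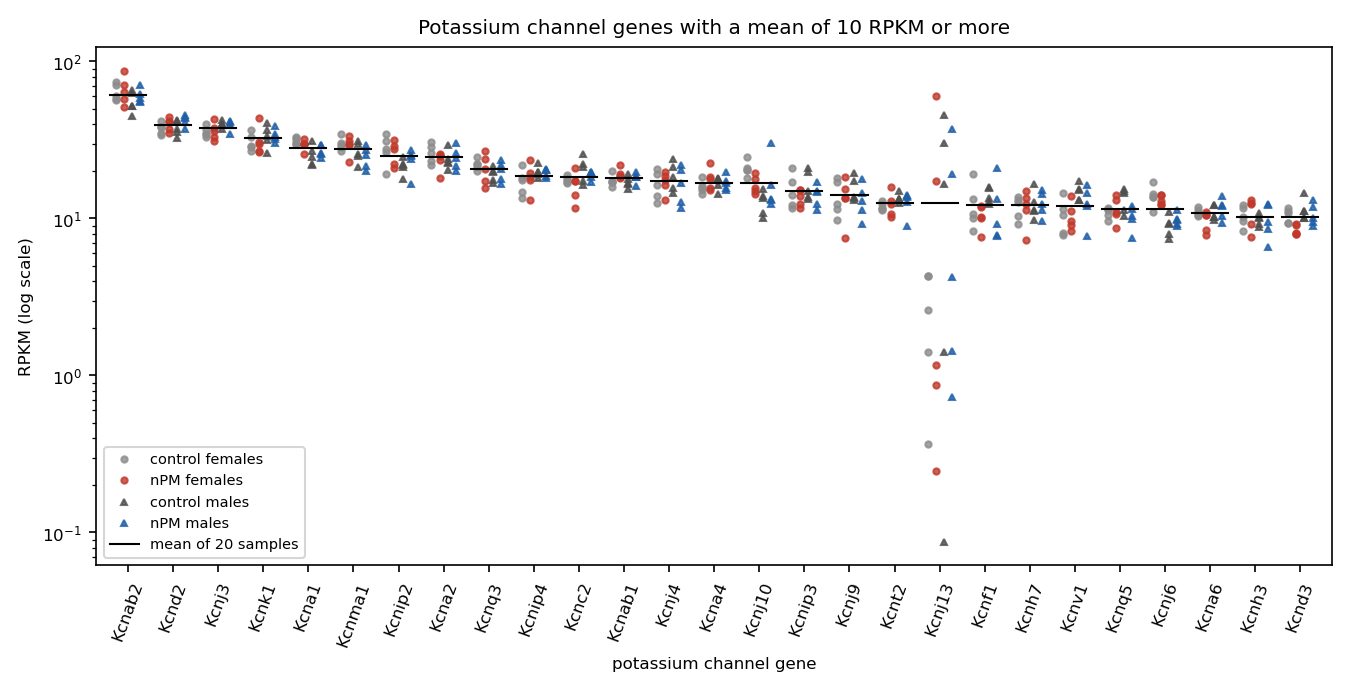
Level of 27 potassium channel genes with a mean of 10 RPKM or more. The vertical axis is RPKM on a log scale, each point is a sample coloured by its group, and the black line is the mean of the 20 samples; Kcnab2 stands first at 61.6 RPKM, and Kcnj13 is the gene whose samples spread over the widest range, 0.0872 to 60.4 RPKM.

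By role, the 30 voltage-gated pore subunits summed to 295.7 RPKM (range over samples 260.7 to 329.6), 39.8% of the total, with 13 of them at 10 RPKM or more. Beside Kcnd2, the most abundant of their subfamilies included the fast-firing channel Kcnc2 (18.4 RPKM) and Kcnh7 of the ether-a-go-go family (12.2 RPKM). The 11 auxiliary subunits summed to 150.1 RPKM (129.7 to 179.2), or 20.2%, and Kcne1l, the most abundant Kcne gene described here, had 1.31 RPKM. The voltage-gated pores and their helpers thus held the larger share of the potassium channel RNA.

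The 15 inward rectifiers summed to 125.9 RPKM (106.4 to 159.2), or 17.0%, and 6 of them reached 10 RPKM, among them Kcnj10, the main inward rectifier of astrocytes (16.8 RPKM). Kcnj13 was also among the 6 and is part of the sum. It had 16.6 to 60.4 RPKM in the samples with the most choroid plexus markers, described below, and 4.31 RPKM or less in the others. The 12 genes of the calcium- and sodium-activated class summed to 66.5 RPKM (52.5 to 77.7), or 8.96%, with Kcnma1 well above Kcnt2 (12.6 RPKM), the small-conductance channel Kcnn2 (7.50 RPKM), Kcnmb4 (6.21 RPKM) and Kcnu1 (0.648 RPKM). The class was set by subfamily. It also holds the Kcnmb genes, partners of Kcnma1 that form no pore, and Kcnu1, placed by family and not by what opens it. The 14 leak channels summed to 59.3 RPKM (51.2 to 68.2), or 7.98%, and Kcnk1 was the only one of them over 10 RPKM, while 7 were under 1 RPKM. The 10 silent modifiers summed to 45.1 RPKM (35.7 to 60.2), or 6.07%. Only 1 of these 10 was under 1 RPKM, and the most abundant of each subfamily were Kcnf1 (12.2 RPKM), Kcnv1 (12.1 RPKM), Kcns2 (8.13 RPKM) and Kcng3 (2.40 RPKM).

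In all, 13 genes did not pass the filter, and the highest count of any of them in a sample was 15, for Kcnv2. Of these, 5 had 3 counts or fewer in every sample: Kcnj15, Kcnk15, Kcnmb3, Kcna7 and Kcnk16. Kcna7 and Kcnk16 had no count in any of the 20 samples, which at 3 counts per library allows a level of up to 0.0753 and 0.187 RPKM, counting error only. Of the 92 genes, 37 overlap another annotated gene, and since the use of strand in the counting was not given in the sources used here, reads of such genes and their partners on the other strand may not be separated.

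The nPM effect was tested with limma-voom in 4 comparisons: both sexes together with sex as a covariate, males alone, females alone, and the interaction, that is the effect in males minus the effect in females. The study's threshold, a p under 0.005 without adjustment, was kept beside a Benjamini-Hochberg adjusted p of 0.05 over all 19797 genes. With adjustment no gene of any kind was called in the 4 comparisons (0% of tested genes in each). The smallest adjusted p of a potassium channel gene was 0.963 in males, 0.9999 in females, 0.9998 when the sexes were fitted together and 0.987 for the interaction. At p under 0.005, 3 of the 79 were called in females and 0 in the other 3 comparisons. At p under 0.05 the count was 6 in females, 4 in males, 6 for the sexes together and 4 for the interaction. No potassium channel gene was called after adjustment by edgeR or DESeq2 either, and at p under 0.005 edgeR called 2 in females and 0 elsewhere, and DESeq2 4 in females, 1 in males and 0 elsewhere. The shares of all genes called by edgeR and DESeq2 are not given here, so these counts have no reference beside them.

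In nPM females, 3 potassium channel genes were lower at p under 0.005: Kcnj16, an inward rectifier subunit that joins Kcnj10 in astrocytes, Kcnip1, a calcium-binding partner of Kcnd channels that is known from interneurons, and Kcnd3, an A-type channel that such partners bind. They are 3.80% of the 79, against 0.0909% of all tested genes called at this threshold and 0.0657% called as lower. The count over all genes was 18 of 19797, itself a smaller share than the p threshold of 0.005. At p under 0.05, all 6 genes called were lower, adding Kcnj10, Kcng3 and Kcnmb1. This is 7.59% of the 79, against 1.99% of all genes, 1.02% as lower. The same 3 genes were those whose 5 nPM females all lay below the 5 control females, 3.80% against 0.187% of all genes, and no potassium channel gene had all nPM females above, against 0.177% of all genes. None of these passed after adjustment.

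The promoters of the 4 genes with the smallest p in females differed in base composition. The 250 bases upstream of the RefSeq start (GRCm38.p6) are shown 5′ to 3′ on the strand of the gene for each, since these are the regulatory sequences next to the genes that the female comparison names. Capitals mark matches on either strand to GGGCGG, the GC box, or to the letters CCAAT, and TATAAA, the TATA box, was also searched.
Kcnj16 (chr11:110967783-110968032, plus strand): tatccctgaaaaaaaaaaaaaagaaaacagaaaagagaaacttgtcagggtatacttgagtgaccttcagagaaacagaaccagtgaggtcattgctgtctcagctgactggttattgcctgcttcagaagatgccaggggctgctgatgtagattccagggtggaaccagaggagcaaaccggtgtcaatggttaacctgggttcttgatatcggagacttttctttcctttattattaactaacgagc
Kcnj10 (chr1:172340960-172341209, plus strand): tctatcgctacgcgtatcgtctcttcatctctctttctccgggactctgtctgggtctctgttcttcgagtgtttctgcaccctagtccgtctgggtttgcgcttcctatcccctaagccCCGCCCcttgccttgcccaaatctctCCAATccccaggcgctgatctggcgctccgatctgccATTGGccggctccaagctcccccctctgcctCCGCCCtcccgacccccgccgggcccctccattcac
Kcnip1 (chr11:33993194-33993443, minus strand): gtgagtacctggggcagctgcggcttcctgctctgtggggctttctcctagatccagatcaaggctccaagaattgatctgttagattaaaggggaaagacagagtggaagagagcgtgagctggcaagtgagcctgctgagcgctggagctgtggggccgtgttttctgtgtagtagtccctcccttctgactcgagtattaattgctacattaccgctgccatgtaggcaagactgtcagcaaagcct
Kcnd3 (chr3:105451640-105451889, plus strand): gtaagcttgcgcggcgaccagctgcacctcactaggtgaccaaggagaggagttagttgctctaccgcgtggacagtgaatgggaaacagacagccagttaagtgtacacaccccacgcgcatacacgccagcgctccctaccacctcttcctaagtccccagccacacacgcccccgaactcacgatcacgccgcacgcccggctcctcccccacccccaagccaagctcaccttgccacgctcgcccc
The Kcnj10 promoter, with 62.0% G and C and 17 CG dinucleotides, held 2 GC boxes and 2 matches to CCAAT. None of these motifs was in the windows of Kcnj16 (42.8% G and C, 3 CG, 1 of 4 starts listed), Kcnip1 (52.8%, 6 CG, 1 of 3 starts) or Kcnd3 (62.8%, 18 CG). Over the 91 promoters listed for 67 of the 92 genes, 45.1% held a GC box, 3.30% a TATA box and 29.7% the letters CCAAT, and over all 32851 promoters of the table the shares were 32.7%, 12.4% and 33.8%. The median number of CG dinucleotides was 7 for potassium channel genes and 6 for all. A match is only a match of letters.

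Kcnj16 (chr11:110968033-111027968, mm10) had 15.8, 16.4, 14.6, 15.2 and 14.1 CPM in control females and 9.69, 12.4, 12.5, 11.8 and 12.97 CPM in nPM females. Every nPM female lay below every control female, and nPM females 1 was the lowest. The log2 fold change was -0.35 (SE 0.10, 95% interval -0.57 to -0.13, limma p = 0.00416, adjusted p = 0.9999, exact permutation p = 0.00794), which is a ratio of 0.783. Males spread far more, from 13.4 to 33.0 CPM in controls and from 10.3 to 19.2 CPM in nPM, with a log2 fold change of -0.36 (limma p = 0.176, exact permutation p = 0.254). Its partner Kcnj10 (chr1:172341210-172374085) had 132, 111, 109, 98.5 and 114 CPM in control females and 80.6, 84.8, 105, 76.9 and 97.2 CPM in nPM females. Only nPM females 3, at 105 CPM, reached into the control range, and the log2 fold change was -0.33 (SE 0.10, interval -0.56 to -0.11, limma p = 0.00705, exact permutation p = 0.0159). The summed level of 8 astrocyte markers was 5771 to 6662 CPM in control females and 5774 to 6764 CPM in nPM females, and 0 of the 8 had a limma p under 0.05. In bulk tissue, fewer cells of a type and less RNA per cell cannot be told apart.

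Kcnip1 (chr11:33629339-33993152) had 17.2, 15.5, 19.0, 14.6 and 13.5 CPM in control females and 11.01, 12.8, 12.6, 13.4 and 10.3 CPM in nPM females. The groups did not overlap, although the highest nPM and the lowest control female lay side by side. The log2 fold change was -0.41 (SE 0.12, interval -0.67 to -0.16, limma p = 0.00424, exact permutation p = 0.00794), a ratio of 0.751. Kcnmb1, a smooth muscle partner of Kcnma1, lies inside the span of Kcnip1 on the other strand, and its levels, 0.535 to 1.40 CPM in control and 0.329 to 0.694 CPM in nPM females, came from 6 to 45 counts a library. Its log2 fold change was -0.75 (SE 0.34, exact permutation p = 0.0397, limma p = 0.0484). The summed interneuron markers were 714 to 1008 CPM in control females (median 950) and 744 to 901 CPM in nPM females (median 817). Only 2 of the 10 markers lay above 0 in females, and 0 had a limma p under 0.05. Whether these markers have a part in the Kcnip1 difference was not tested.

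Kcnd3 (chr3:105452330-105674002) had 111, 104, 107, 89.1 and 90.3 CPM in control females and 76.6, 86.8, 77.4, 88.3 and 76.0 CPM in nPM females. All nPM females lay below all controls, by a narrow margin at the edge. The log2 fold change was -0.29 (SE 0.086, interval -0.48 to -0.11, limma p = 0.00483, exact permutation p = 0.00794), a ratio of 0.816. Kcng3 (chr17:83585957-83631895), a silent modifier, had 8.26 to 11.4 CPM in control females and 5.31 to 9.35 CPM in nPM females, so the groups overlapped, with a log2 fold change of -0.47 (SE 0.16, exact permutation p = 0.0317, limma p = 0.0127). The permutation test within a sex was two-sided on the mean log2 CPM, and 0.00794 is the smallest p it can give with 5 samples against 5.

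Markers of other cells and regions are given beside these differences, and none passed an adjusted p of 0.05 in females. The summed thalamus markers were 230.3 to 446 CPM in control females and 219.8 to 275 CPM in nPM females, with 1 of 9 tested lower at a limma p under 0.05 and all 9 below 0. Microglial markers summed to 216 to 265 CPM in control and 217 to 328 CPM in nPM females, with 2 of 8 higher and all 8 above 0. Endothelial and pericyte markers summed to 266 to 308 and 275 to 365 CPM, with 1 of 9 higher and 8 above 0, and meningeal fibroblast markers to 44.7 to 121 and 34.7 to 230.01 CPM, with 1 of 8 higher and all 8 above 0. Mitochondrial ribosomal RNA took 9.16% to 11.4% of the counts in control and 10.2% to 13.3% in nPM females. The part of these in the differences of the potassium channel genes was not tested.

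These calls sat close to the threshold. Leaving out 1 of the 10 females at a time kept Kcnj16, Kcnj10, Kcnip1, Kcnd3 and Kcng3 lower with p under 0.05 in every fit. Kcnmb1, also called at p under 0.05 with all 10 females, is not covered by this statement. A p under 0.005 was kept for Kcnj16 only without nPM females 5 (limma p of 0.00452), and for Kcnip1 and Kcnd3 only without control females 4, control females 5 or nPM females 4. Without nPM females 1, the library with the striatal and choroid plexus markers, no potassium channel gene had p under 0.005, and p was 0.0119 for Kcnj16, 0.0108 for Kcnip1, 0.00998 for Kcnd3 and 0.0178 for Kcnj10. In 1 fit of the 4 groups, which takes the spread of the males too, p was 0.109 for Kcnj16, 0.00832 for Kcnip1, 0.0111 for Kcnd3 and 0.0762 for Kcnj10, and with the age of the mice as a covariate Kcnj16 had a p of 0.00771.

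**Figure D2:**
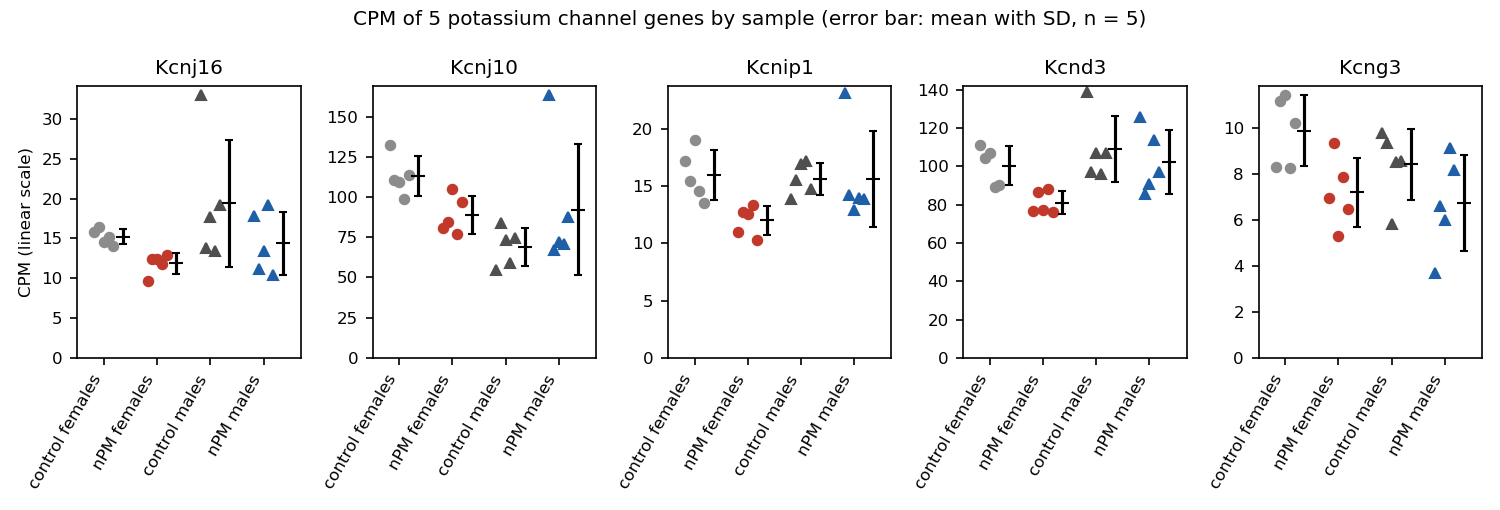
Level of Kcnj16, Kcnj10, Kcnip1, Kcnd3 and Kcng3 in each sample. The vertical axis of each panel is CPM on a linear scale from 0, points are samples in the 4 groups and the error bar is the mean with SD (n = 5); for Kcnj16, Kcnip1 and Kcnd3 every nPM female lies below every control female, and the males of both exposures overlap.

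Across the 79 genes in females, 54 had a log2 fold change below 0 and 25 above, with a median of -0.06, while over all tested genes 51.2% were above 0 and the median was 0.00. The lower values were spread over the classes: 20 of 28 voltage-gated pore subunits, 9 of 13 inward rectifiers, 7 of 9 silent modifiers, 7 of 10 calcium- and sodium-activated, 6 of 10 leak and 5 of 9 auxiliary genes. These genes are not independent of each other, and nPM females 1 was the lowest of its group in 31 of them. In 42 of the 79 the 95% interval lay within 0.5 log2 units of 0. Kcnn3, a small-conductance calcium-activated channel, had 24.0, 30.7, 54.3, 25.9 and 32.4 CPM in control females and 34.1, 23.1, 21.7, 19.9 and 23.3 CPM in nPM females, with a log2 fold change of -0.39 (limma p = 0.0934, exact permutation p = 0.111 within females). The values of 54.3 in control females 3 and 34.1 in nPM females 1 were the highest of their groups. In males Kcnn3 had 21.5 to 37.9 CPM in control and 28.8 to 41.8 CPM in nPM.

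In nPM males no potassium channel gene had p under 0.005 (0.207% of all tested genes did), and 4 had p under 0.05, 1 higher and 3 lower, which is 5.06% against 4.28% of all genes. The higher one was Kcng4 (chr8:119623854-119635680), a silent modifier, with 3.51, 4.43, 5.17, 5.12 and 4.13 CPM in control males and 6.84, 5.51, 6.54, 5.50 and 5.41 CPM in nPM males. All nPM males lay above all controls, which was so of 1.27% of the 79 genes and 0.374% of all genes, and of none of the 79 in the lower direction against 0.293% of all. The log2 fold change was 0.42 (SE 0.13, interval 0.13 to 0.71, p = 0.00884, adjusted p = 0.963 by limma, exact permutation p = 0.00794 within males). In females Kcng4 had 5.64 ± 1.64 CPM in control and 5.13 ± 1.43 CPM in nPM (SD, n = 5).

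The 3 lower genes in males were of different roles. Kcnq5, another M-current subunit (chr1:21398403-21961942), had 112, 86.9, 118, 80.2 and 114 CPM in control males and 57.8, 79.6, 88.1, 76.6 and 91.9 CPM in nPM males, with overlap and a log2 fold change of -0.38 (SE 0.14, exact permutation p = 0.0714, limma p = 0.0214). The silent modifier Kcns1 had 4.61 to 6.57 CPM in control and 2.89 to 6.36 CPM in nPM males (log2 fold change -0.53, SE 0.22, exact permutation p = 0.0794, limma p = 0.0310). Kcne4, an auxiliary subunit, had 1.04, 1.61, 1.07, 0.784 and 1.28 CPM in control males and 0.663, 0.897, 0.784, 0.691 and 0.877 CPM in nPM males (log2 fold change -0.52, SE 0.23, exact permutation p = 0.0317, limma p = 0.0405), and rested on 25 to 46 counts a library in males. Over the 79 genes, 40 had values above 0 and 39 below, and the median was 0.00, as over all genes. Of the markers of other cells and regions, at a limma p under 0.05 in males, 2 of 10 for the neocortex were lower (276 to 364 CPM summed in control and 226 to 315 CPM in nPM males), 2 of 12 for the striatum, 1 of 9 for the thalamus and 1 of 9 for endothelial cells and pericytes were higher. Of 8 markers of CA1 pyramidal cells, 2 were higher and 1 lower, and of 8 of CA3, 1 was higher. Their part in the male values was not tested.

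With both sexes together, 0 of the 79 had p under 0.005 (0.141% of all genes did) and 6 had p under 0.05, 3 in each direction, 7.59% against 2.10% of all genes. The smallest p was that of Kcng3. In females it had 9.89 ± 1.54 CPM in the control and 7.20 ± 1.52 CPM in the nPM group, and in males 8.42 ± 1.54 and 6.73 ± 2.10 CPM (SD, n = 5), with a log2 fold change of -0.43 (standard error 0.14, limma p of 0.00651). Kcnj16 (-0.36, SE 0.14, limma p of 0.0190) and Kcnd3 (-0.20, SE 0.079, p of 0.0205) followed, with the same females in the fit as above. Kcns2, a silent modifier, was higher by 0.15 (SE 0.069, p of 0.0373), Kcnd2 by 0.13 (SE 0.059, p of 0.0389) and the beta subunit Kcnab1 by 0.11 (p of 0.0465) on the log2 scale. Without control males 3, Kcng3 (p of 0.00199) and Kcns2 (p of 0.00429) came under 0.005, and without nPM males 1, Kcnd3 (p of 0.00313) and Kcnip1 (p of 0.00055) did. Kcng3 also did in turn without nPM females 2, nPM males 4 and nPM males 5. For 63 of the 79 genes the 95% interval lay within 0.5 log2 units of 0.

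The interaction tests whether the nPM effect differed between the sexes. None of the 79 had p under 0.005 (0.217% of all genes did), and 4 had p under 0.05, 1 with a higher and 3 with a lower effect in males, 5.06% against 3.79% of all genes. Kcne4 had the smallest p. Its females had 0.767 ± 0.240 CPM in control and 1.05 ± 0.244 CPM in nPM, its males 1.16 ± 0.308 and 0.782 ± 0.106 CPM (SD, n = 5), and the effect in males minus that in females was -1.002 log2 units (SE 0.33, limma p of 0.00707). Its p was under 0.005 when control females 1, control females 4, control males 4 or nPM females 2 was left out. Kcnj10 had a difference of 0.70 (SE 0.26, limma p of 0.0152): its level in nPM males 1 was 163 CPM, against 67.0 to 87.8 CPM in the other nPM males and 54.4 to 83.5 CPM in control males, and without that library the difference was 0.45 (p of 0.0154).

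Kcnq5 had a difference of -0.44 (SE 0.20, limma p of 0.0369), with 84.0 ± 6.75 CPM in control females and 88.8 ± 16.3 CPM in nPM females (SD, n = 5) beside the lower values of nPM males given above. Kcnq1, the pore of the slow cardiac delayed rectifier, had a difference of -1.62 (SE 0.64, limma p of 0.0201) from 1 to 15 counts a library, and 12 other genes overlap it, Kcnq1ot1 among them. Kcnip1 had a difference of 0.40 (SE 0.20, limma p of 0.0574), which was 0.23 (p of 0.134) without nPM males 1. The interval of the difference lay within 0.5 log2 units of 0 in only 20 of the 79, so that for the rest a difference of that size was not resolved with 5 samples a group.

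**Figure D3:**
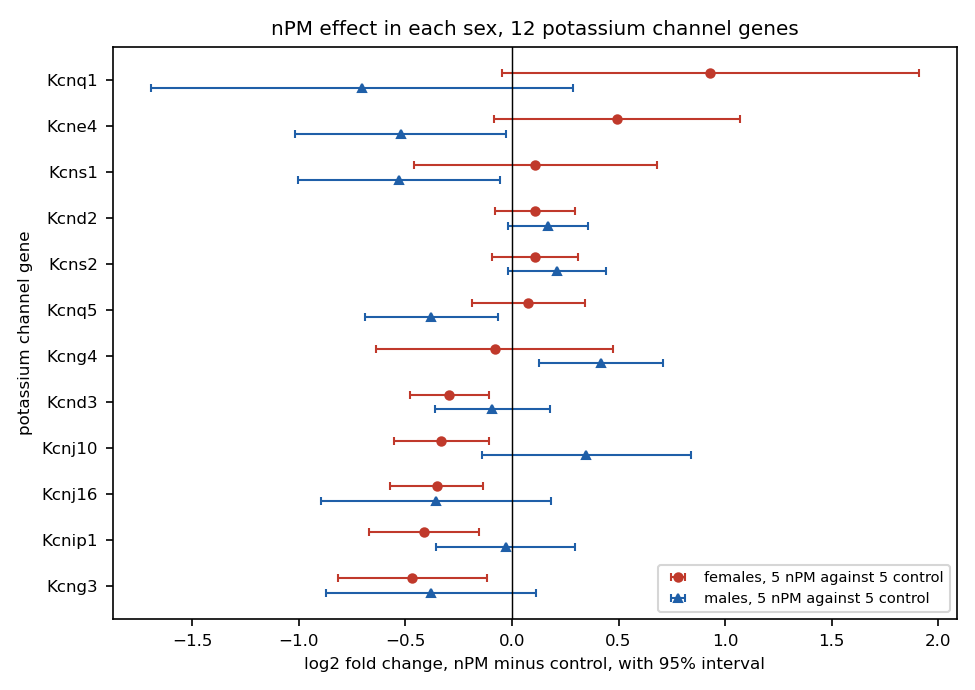
nPM effect on the potassium channel genes named for the exposure comparisons, in females and in males. The horizontal axis is the log2 fold change, nPM minus control, the bars are 95% intervals from limma with 5 against 5 samples, and the vertical line marks 0; Kcnj16, Kcnip1 and Kcnd3 lie below 0 in females with intervals that end before it, and Kcng4 lies above 0 in males.

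Between males and females, 14 of the 79 potassium channel genes (17.7%) passed an adjusted p of 0.05 by limma, 10 lower in males and 4 higher. The background was 40.4% of all tested genes, 21.6% as lower in males and 18.8% as higher, so that the share of potassium channel genes was below it. Without adjustment, 8 genes (10.1%) had p under 0.005 against 31.1% of all genes, and 18 (22.8%) had p under 0.05 against 48.4%. Sex and age, and EdU if only males received it, come together in this comparison. No sequencing batch was given in the sources used here, so whether one also came together with sex is not known.

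Kcnj6, a G-protein-gated inward rectifier (chr16:94749266-94997696), had 63.6 to 98.5 CPM in females (median 79.6) and 42.8 to 65.9 CPM in males (median 54.0), with a log2 fold change of -0.52 (SE 0.078, adjusted p = 3.93e-05 by limma). The sexes overlapped at the edge. Kcnc1, a channel of fast-spiking neurons, was lower in males too, with 99.3 ± 12.1 CPM in females and 74.4 ± 12.4 CPM in males (SD, n = 10, log2 fold change -0.42, SE 0.093, adjusted p = 0.00114 by limma).

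Kcnn2, a small-conductance calcium-activated channel, had 50.2 to 72.1 CPM in females (median 64.7) and 36.4 to 54.6 CPM in males (median 47.0), a log2 fold change of -0.44 (SE 0.087, adjusted p = 0.000468). Also lower in males were the sodium-activated Kcnt1 (-0.49, adjusted p = 0.00370), Kcna1 (-0.23, adjusted p = 0.00650), Kcnh4 (-0.75, adjusted p = 0.0394), Kcnma1 (-0.21, adjusted p = 0.0481) and Kcnj10 (-0.38, adjusted p = 0.0482). Their ranges in the sexes all overlapped. The Kcnj10 difference was not alike in the 2 exposures. Its mean was 113 CPM in control females and 69.0 CPM in control males. Under nPM it was 88.8 CPM in females and 92.1 CPM in males, the latter with nPM males 1 at 163 CPM.

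The 4 genes higher in males were Kcnb2 (0.27, adjusted p = 0.0113), with 53.0 to 93.4 CPM in females (median 76.2) and 79.5 to 109 CPM in males (median 89.5), the silent modifier Kcnv1 (0.39, adjusted p = 0.0207), Kcnd3 (0.22, adjusted p = 0.0303) and Kcnj3 (0.14, adjusted p = 0.0439). Kcnj3 and Kcnj6, both G-protein-gated, thus differed between the sexes in opposite directions. Mean Kcnd3 was 100 CPM in control females and 109 CPM in control males. Under nPM it was 81.0 CPM in females and 103 CPM in males. By role, 5 of the 10 lower genes were voltage-gated pore subunits, 3 were calcium- or sodium-activated and 2 were inward rectifiers, and no leak or auxiliary gene was called. Markers of other cells differed between the sexes as well: in males 5 of 8 microglial and 4 of 8 astrocyte markers were higher, 1 astrocyte marker was lower, 6 of 9 endothelial and pericyte markers were lower, and 3 of 8 oligodendrocyte markers were higher, at an adjusted p of 0.05. Of all tested genes, 18.8% were higher and 21.6% lower. Of the interneuron markers 2 of 10 were higher, and of the CA3 markers 2 of 8 were lower. Of the 13 choroid plexus, 9 thalamus and 8 meningeal fibroblast markers, 0 were called. Mitochondrial ribosomal RNA took 9.16% to 11.4% of the counts in control females and 11.5% to 11.9% in control males. Under nPM it took 10.2% to 13.3% in females and 9.38% to 11.8% in males. The part of the markers and of this RNA in the differences of the potassium channel genes was not tested.

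**Figure D4:**
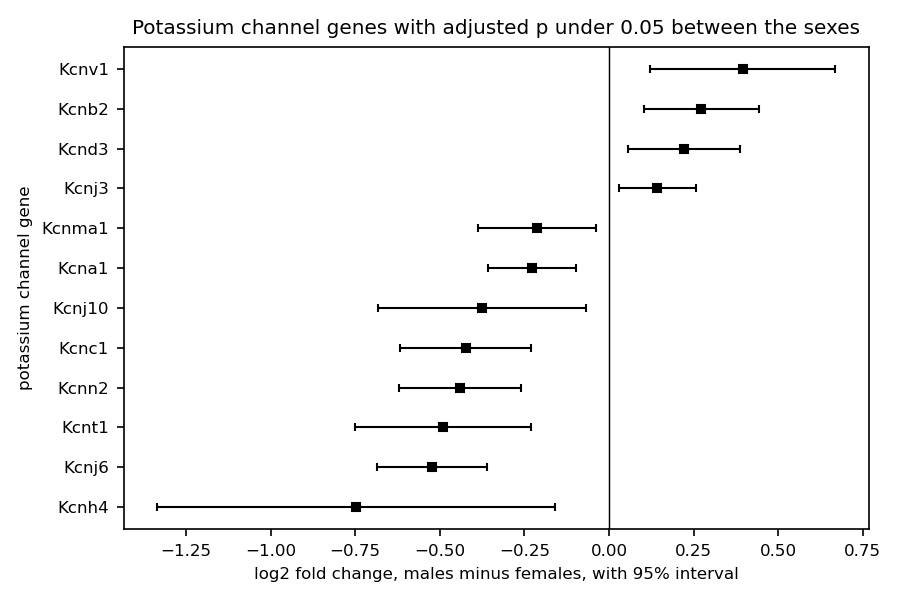
Difference between males and females for 12 of the potassium channel genes with an adjusted p under 0.05. The horizontal axis is the log2 fold change, males minus females, with 95% intervals from limma (10 against 10 samples, exposure as a covariate), and the vertical line marks 0; 8 of them lie below 0, Kcnh4 farthest at -0.75, and 4 lie above.

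The median SD of log2 CPM within groups was 0.28 for the 79 and 0.26 for all tested genes. Kcnj13, an inward rectifier of the choroid plexus epithelium, varied most, with an SD of 2.84. It had 21.1 to 76.7 CPM in 7 samples, namely nPM females 1 and 5, control males 2, 4 and 5, and nPM males 2 and 3, and 0.111 to 5.47 CPM in the other 13 (3 to 2321 counts). The same 7 samples had the highest sums of the 13 choroid plexus markers, 1912 to 8796 CPM, against 44.4 to 897 CPM in the others. The 7 samples come from 3 of the 4 groups, and the nPM effect on Kcnj13 had a 95% interval of -2.25 to 2.47 log2 units with both sexes. Kcnj5 (SD 0.95), Kcnq1 (0.74), Kcnmb1 (0.67) and Kcnh4 (0.64) came next, each with a mean under 1 RPKM.

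**Figure D5:**
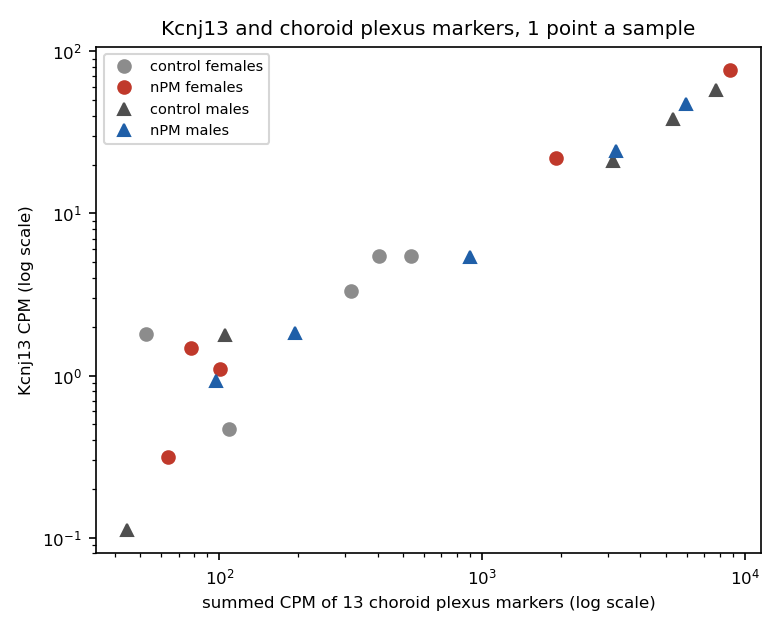
Kcnj13 against the choroid plexus markers, 1 point a sample. The horizontal axis is the summed CPM of 13 markers and the vertical axis the CPM of Kcnj13, both on a log scale, with samples coloured by group; 7 samples lie above 20 CPM of Kcnj13 and at 1912 CPM or more of the markers, and the other 13 lie below on both axes.

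A list of 28 genes around potassium currents (cyclic-nucleotide-gated Hcn channels, scaffolds, anchors and regulators) was set beside the channels, and 26 were tested. At a limma p under 0.05 none was called for the sexes together, 1 was higher in males (Pex5l, an Hcn partner, 0.22, p of 0.0214), 1 was lower in females (Hcn4, -0.76, SE 0.29, p of 0.0219) and 1 was higher for the interaction (Cntn2, an axonal adhesion protein, 0.46, p of 0.0363), all log2 differences with no call after adjustment. These are 1 of 26 each, beside 4.28% of all tested genes in males, 1.99% in females and 3.79% for the interaction. The median log2 fold change of the 26 was -0.03 in females, 0.06 in males and 0.01 for the sexes together. Between the sexes, 3 of the 26 were higher and 8 lower in males at an adjusted p of 0.05, beside 40.4% of all tested genes, with Hcn2 at -0.57, the scaffold Dlg4 at -0.49, the ubiquitin ligase Nedd4l at -0.44 and the anchor Ank3 at -0.37 among the lower.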

How the data were processed

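RNA-seq of 20 hippocampus samples gave the counts used here. The authors trimmed reads where needed (FastQC, Trimmomatic), aligned them to mm10 with HISAT2 and deposited raw counts per gene from featureCounts 1.5.0-p3 on Gencode M11, with gene lengths and a mean RPKM per gene over all samples. The deposited mean RPKM was used only as a check and differed from that computed from the counts by at most 5.82e-11. The use of strand was not given in the sources used here.

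Genes were filtered with filterByExpr of edgeR 4.0.16 (minimum count 10, minimum total 15), scaled by TMM and tested with limma 3.58.1 (voom, offset 0.5 counts, empirical Bayes) in R 4.3.3, with a p of 0.005 as in the study and Benjamini-Hochberg adjustment over 19797 genes. CPM were counts divided by the summed counts of the tested genes times the TMM factor, times 1e+06, and RPKM were CPM per kilobase. Single values were checked by an exact permutation test of 5 against 5 samples within a sex. The fits were tested on simulated data. Depth was 19092067 to 38663408 counts, and counting limits cover counting error only.

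Members named were the 5 with the smallest p in each comparison, all with p under 0.005, the 10 most abundant, the most abundant of each subfamily, the 5 most variable, and Kcnn3, which the study lists. Kcnab1, the genes below the filter, the other sex differences past adjustment and the related genes were named after their values were seen. The members and lists were chosen with earlier results of these data known. Alternatives were edgeR and DESeq2 1.42.0, other scalings and filters, covariates and leaving out samples. Some genes that match the name pattern or the rules above are not reported here by name.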

Additional observations from a re-analysis of the deposited data

Results flagged for a closer look

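Each named gene was examined in each group of 5 samples for a sample far from the other 4 (Dixon's ratio of the gap to the range above 0.71, on log2 CPM). In 13 of 164 such groups a sample stood apart. Chance gives about 1 in 20 for genes not chosen by their values, whereas some of these were chosen for a small p or a wide spread, so that this share is no reference for them. Of the 13, 5 were in nPM males 1. That library had 23.1 CPM of Kcnip1 (the other nPM males 12.9 to 14.3), 179 CPM of Kcnj3 (206 to 217), 57.8 CPM of Kcnip2 (83.4 to 94.8), 4.96 CPM of Kcne1l (1.69 to 2.09) and 61.8 CPM of Kcnt2 (87.5 to 97.6). Its summed thalamus markers were 456 CPM, against 261 to 328 CPM in the other nPM males, and their part in these values was not tested. Control males 3 had 3 of the 13: 5.83 CPM of Kcng3 (the other control males 8.54 to 9.81), 44.7 CPM of Kcns2 (29.5 to 32.9) and 42.2 CPM of Kcnt1 (31.5 to 32.4).

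The others were in 5 further libraries. In nPM females 4, Kcng4 was at 2.74 CPM (the other nPM females 5.09 to 6.49). In nPM females 1, Kcna2 was at 214 CPM (283 to 308). Control males 1 had 0.634 CPM of Kcnh4 (1.39 to 1.72). Among genes with few counts, Kcnq1 was at 0.0382 CPM in control females 2 (0.250 to 0.267) and Kcnj5 at 0.0445 CPM in control females 5 (0.497 to 0.811).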

How the results depend on the processing

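For the genes named, 681 of the values under other settings kept their direction and side of the threshold, 17 came under a p of 0.005, 43 no longer did and none changed direction. The count of potassium channel genes at p under 0.005 in females, 3, was 0 with age as a covariate and in 1 fit of the 4 groups, and at most 4 over the alternatives. In males the count was 1 with DESeq2 (Kcng4) instead of 0, and for the interaction 1 without a filter on low counts (Kcna10) instead of 0. Leaving out 1 sample gave counts of 0 to 2 with both sexes, 0 to 2 in males, 0 to 3 in females, 0 to 1 for the interaction and 7 to 10 between the sexes, where the alternatives gave 7 to 12. The shares of all genes called under these other settings are not given here. A changed count therefore has no reference beside it. The share of all counts taken by potassium channel genes, 0.459%, was 0.562% of protein-coding counts without mitochondrial genes, whose total is smaller by construction. The causes of the other changes were not tested. Age as a covariate was not run between the sexes, whose ages do not overlap.

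The labels number the samples of each group alike. Deviations of same-numbered samples correlated at -0.175 to 0.0458 in females and -0.364 to 0.157 in males, and 0 of 5 samples correlated best with their own number in either sex. Across the sexes the correlations were -0.093 to 0.224 in controls, where 3 of 5 correlated best with their own number, and -0.226 to 0.165 in nPM samples, where 1 of 5 did. In none of the 4 comparisons was every correlation over 0.1, so the numbers were not taken to pair the samples. With the replicate block the count in females was 0.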
